A study of Mus musculus with 36 samples.

Results

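In potassium-depolarised mouse cortical neurons, 2 ATAC-seq libraries after 10 h of KCl were compared directly with 2 after 1 h, to find which accessible regions opened late and which were lost as depolarisation went on. They are 4 of 18 ATAC-seq libraries and of 36 samples in the series. The neurons came from cortices of CD-1 mouse embryos at embryonic day 15, pooled over embryos and cultured for 7 days. Before any stimulus, activity was blocked for 2 h in every culture by the NMDA receptor antagonist AP-5 (100 µM) and the sodium channel blocker TTX (1 µM). KCl neurons then received 55 mM KCl for 1, 6 or 10 h, and BDNF neurons 10 ng/ml of brain-derived neurotrophic factor for the same times. Control neurons received no stimulus and stayed in AP-5 and TTX for 3, 8 or 12 h in all, so that they match the 1, 6 and 10 h groups. Each group had 2 libraries. The study's methods call them biological replicates, but the labels do not tie them to separate litters, so p-values measure only the spread between these samples, which may be technical.

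ATAC-seq counts insertions of the Tn5 transposase, which enters DNA that is not wrapped in nucleosomes, and a peak is a stretch where insertions pile up, such as an active promoter or enhancer. Raised extracellular potassium depolarises neurons, opens voltage-gated calcium channels and switches on transcription factor genes within minutes. Among their products are the Fos and Jun proteins, which pair to form AP-1, and AP-1 binds enhancers of genes that are expressed later.

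The 4 libraries held 3.94 and 6.24 M reads in peaks at 1 h (libraries A and B) and 2.99 and 3.21 M at 10 h, within a range of 1.24 to 6.24 M over all 18 libraries, so the later time was the shallower one. The 6 h KCl libraries held 4.21 and 1.24 M. Replicates of a group correlated at 0.859 to 0.929 (Pearson, across peaks, which are not independent). Levels below are scaled read counts, that is counts divided by LOESS factors, and changes are log2 fold changes ± SE with Benjamini-Hochberg adjusted p from edgeR's quasi-likelihood test. In the RNA-seq of the same groups, all 10 genes of the excitatory neuron list passed the expression filter. That list includes general neuronal markers such as Map2 and Tubb3. Markers of inhibitory neurons, astrocytes and the oligodendrocyte lineage were present beside them.

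Between 1 and 10 h of KCl, 592 of 56383 peaks rose and 339 fell (adjusted p below 0.1), which is 1.05% and 0.601% of the peaks tested. The peaks that rose had a median change of 1.54 on the log2 scale and lay mostly outside promoters, whereas those that fell had a median of -1.23 and 49.0% of them lay in promoters. Among peaks that rose, the 10 h libraries both lay above the 1 h libraries in 590 of 592, and among peaks that fell they both lay below in 339 of 339. Over all peaks tested, 21.8% were separated in this way upward and 22.4% downward. The calls rest on these same libraries, so the separation among called peaks follows largely from the test and adds no support. A change of more than 2-fold was reached by 454 of the peaks that rose and 215 of those that fell. At the edge of the call, a peak at the Arcn1 promoter just passed (adjusted p = 0.0999) and an intronic peak nearest to Plcl1 just missed (adjusted p = 0.1 when rounded), with log2 changes of -0.99 and 1.48.

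These counts rested on single libraries. Leaving out KCl 1 h library B, the deepest, gave 16 called peaks, and leaving out KCl 10 h library A gave 86, while 520 were called without 1 h library A and 422 without 10 h library B.

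**Figure D1:**
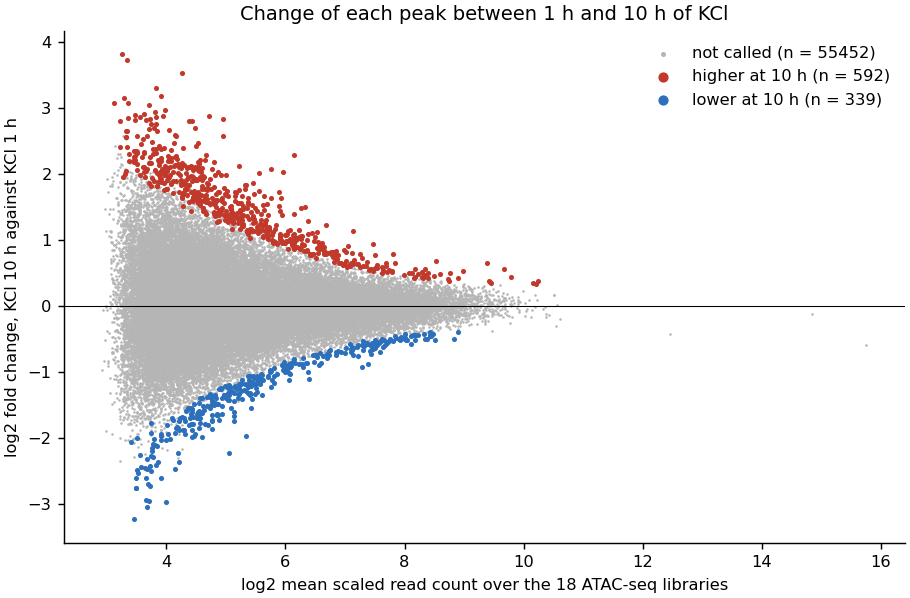
Log2 fold change between KCl 10 h and KCl 1 h (vertical axis) against the log2 mean scaled read count over the 18 libraries (horizontal axis), 1 point for each of 56383 peaks. The 592 peaks called higher (red) and 339 called lower (blue) range from 3.81 to -3.24, and the largest changes are in peaks with few reads.

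Sequences are shown first for the 4 largest rises, because most of the largest rises held the site marked in them. Each is the central stretch of 200 bases on the forward strand of GRCm38 (mm10), 5′ to 3′, with matches to the AP-1 site TGAGTCA on either strand in capitals, and is named by the gene with the nearest protein-coding start site.
Has1, chr17:17849180-17849379: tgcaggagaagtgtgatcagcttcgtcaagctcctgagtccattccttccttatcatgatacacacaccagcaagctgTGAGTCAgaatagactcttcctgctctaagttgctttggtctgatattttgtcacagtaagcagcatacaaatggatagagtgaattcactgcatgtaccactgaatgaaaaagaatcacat
Ptchd4, chr17:41944056-41944255: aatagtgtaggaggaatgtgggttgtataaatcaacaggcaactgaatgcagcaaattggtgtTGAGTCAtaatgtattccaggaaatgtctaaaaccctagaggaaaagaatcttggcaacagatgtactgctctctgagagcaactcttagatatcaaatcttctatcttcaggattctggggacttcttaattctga
Msl3l2, chr10:56061585-56061784: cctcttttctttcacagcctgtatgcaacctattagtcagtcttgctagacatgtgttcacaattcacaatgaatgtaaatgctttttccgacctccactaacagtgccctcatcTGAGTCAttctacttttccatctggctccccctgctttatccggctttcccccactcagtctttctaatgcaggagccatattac
Cox7c, chr13:87208397-87208596: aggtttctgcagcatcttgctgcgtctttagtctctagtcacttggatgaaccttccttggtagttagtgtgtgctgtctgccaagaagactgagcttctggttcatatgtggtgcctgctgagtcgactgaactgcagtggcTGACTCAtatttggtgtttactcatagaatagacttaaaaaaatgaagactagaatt
All 4 hold 1 match. The regions are an exonic peak near Has1, a hyaluronan synthase gene, an intergenic peak nearest to Ptchd4, an intronic peak nearest to Msl3l2 and an intergenic peak nearest to Cox7c, a subunit gene of mitochondrial cytochrome c oxidase.

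In the same form, 3 of the largest falls are given, and 0 AP-1 matches were found in them. As 9.07% of all peaks tested held a match, 3 peaks are too few to show a lower share.
4833420G17Rik, chr13:119463278-119463477: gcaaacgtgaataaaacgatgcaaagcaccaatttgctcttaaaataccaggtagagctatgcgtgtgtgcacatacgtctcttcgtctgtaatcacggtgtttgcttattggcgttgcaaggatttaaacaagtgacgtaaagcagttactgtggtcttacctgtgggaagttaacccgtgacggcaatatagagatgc
Gm20830, chrY:6821631-6821830: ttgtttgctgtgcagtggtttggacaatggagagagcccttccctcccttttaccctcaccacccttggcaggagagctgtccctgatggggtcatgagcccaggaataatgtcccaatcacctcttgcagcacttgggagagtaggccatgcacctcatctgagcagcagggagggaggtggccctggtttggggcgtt
Lpo, chr11:87828545-87828744: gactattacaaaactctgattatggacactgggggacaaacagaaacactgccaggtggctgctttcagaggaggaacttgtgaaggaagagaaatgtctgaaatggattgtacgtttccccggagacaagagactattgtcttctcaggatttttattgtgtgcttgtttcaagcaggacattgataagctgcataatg
These are an exonic peak at 4833420G17Rik, an intergenic peak on the Y chromosome nearest to Gm20830, and the promoter of Lpo, the gene for lactoperoxidase. The Y chromosome holds many near-identical gene copies, so reads of the Gm20830 peak may come from more than 1 locus.

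Of the 12 largest rises, 10 held an AP-1 match in their central 200 bases, against 9.07% of all peaks tested, and 7 were intergenic and 4 intronic. The peak near Msl3l2 (chr10:56061532-56061837) had scaled counts of 3.45 and 1.13 in the 1 h libraries, 30.2 and 12.7 after 6 h, and 25.5 and 24.9 after 10 h, and the 6 controls ran from 1.21 to 7.30 with a median of 6.01. It was at or below the level of silenced neurons at 1 h and above every control from 6 h on, a change of 3.52 ± 0.64 between 1 and 10 h (adjusted p = 0.000642). The intergenic peak nearest to Aco1, which encodes the cytosolic aconitase, had 5.17 and 5.79 at 1 h, then 33.7 and 20.3 by 6 h and 47.3 and 38.7 by 10 h, against 4.55 to 11.7 in controls. It rose from within the control range by 2.93 ± 0.56 (adjusted p = 0.00124), with no AP-1 match in the window. The Cox7c peak went from 6.03 and 0.580 to 45.2 and 14.2, a change of 3.30 ± 0.67 (adjusted p = 0.00378), with the 2 libraries of each time far apart.

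In 9 of the 12 largest rises both 10 h libraries lay above all 6 controls, and in 2 of the 12 both 1 h libraries lay below all controls. These counts use the KCl values that chose the peaks, and the share over all peaks was not counted. Of the 12, 3 had at most 3 reads at 1 h, so their size is poorly known. The Has1 peak had 2 reads at 1 h in all, the lowest value the table holds in each library, and 24 at 10 h, a ratio of 16.2 with a 95% counting interval of 4.02 to 141. Its 6 h libraries (11.4 and 18.8) were already as high as its 10 h libraries (9.53 and 13.2). For the Ptchd4 peak the ratio was 14.5 (interval 4.54 to 74.0), and for the peak near Cntnap5b, a gene for a neurexin-family cell adhesion protein, 8.27 (2.41 to 43.8). These intervals cover counting error only and take each count as it stands. As 1 was the lowest value in every library, a count of 1 may stand for no read.

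Peaks with the lowest p, chosen after their values were seen, had more reads. The one with the lowest p lay 513298 bp from the start of Gdf6, a growth factor gene of the BMP family, and held 28.6 and 18.1 at 1 h, then 84.5 and 45.7 by 6 h, and 119 and 102 by 10 h, against 7.72 to 39.7 in controls. It rose by 2.28 ± 0.30 (adjusted p = 3.36e-07), and it holds an AP-1 match. Its controls were also higher at 10 h (20.1 and 39.7) than at 1 h (13.5 and 11.9). The KCl change less the control change was 0.98 ± 0.50 and did not pass (edgeR, adjusted p = 0.55). A strongly open intergenic peak nearest to Rab39b on the X chromosome moved from 642 and 665 to 1028 and 904, a small but separated rise of 0.56 ± 0.10 (adjusted p = 0.000313). With controls between 727 and 869, it stood below them at 1 h and above them at 10 h. The other largest rises lay nearest to Car8, Gm16223, Phf3, Myo3a, Agtr1b and Tacr3, with changes between 2.97 and 3.17.

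**Figure D2:**
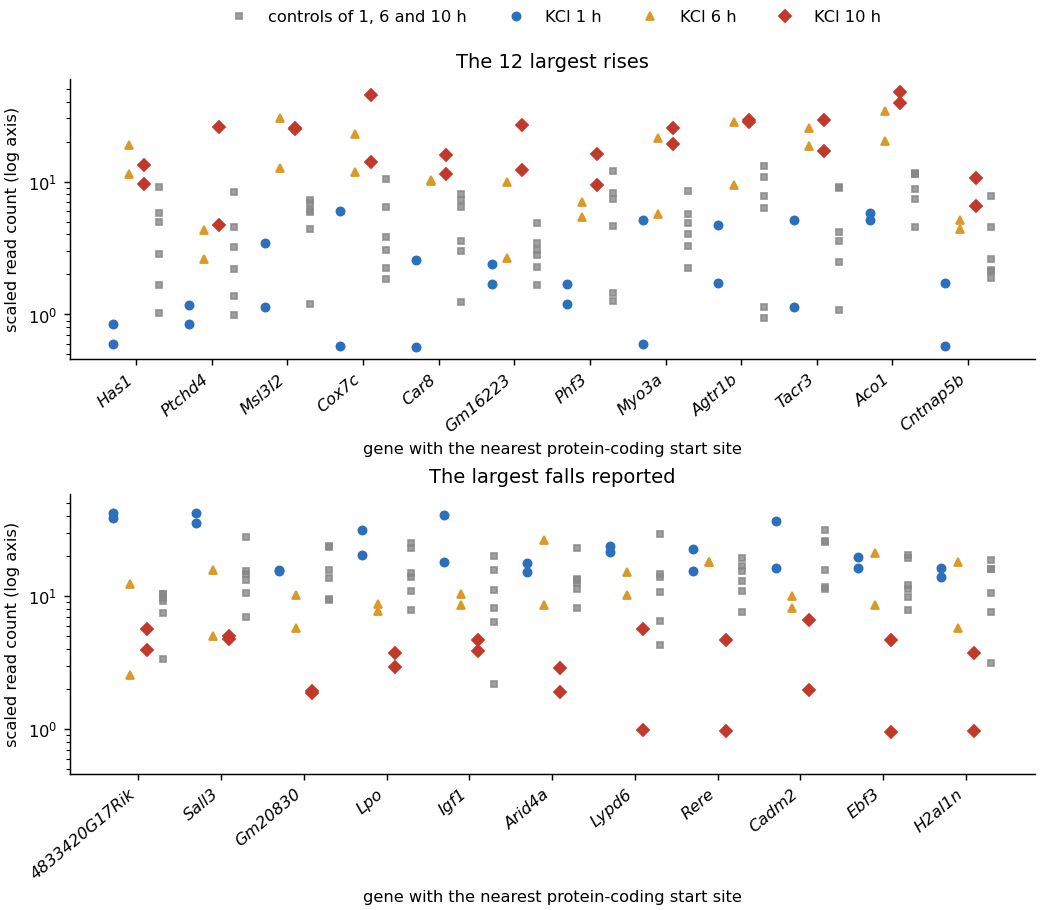
Scaled read counts (log axis) of the 12 largest rises (top) and the largest falls reported here (bottom), each named by its nearest gene, with 1 symbol per library for KCl 1 h (blue circles), 6 h (orange triangles) and 10 h (red diamonds) and for the 6 controls (grey squares). The red and blue symbols of a peak do not overlap, and in many rises the 6 h values already sit with the 10 h values.

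Among promoter peaks, the 6 largest rises were smaller, from 1.46 to 2.82, and 4 of them held an AP-1 match. The promoter of Vmn2r120, a vomeronasal receptor gene, rose from 8.49 and 4.88 to 45.3 and 46.7 (2.82 ± 0.51, adjusted p = 0.000663). One control of 10 h reached 33.4 there, and the gene belongs to a large family of close copies. The promoter of Rdh10, a retinol dehydrogenase gene, rose from 16.9 and 15.5 to 35.1 and 53.8 (1.46 ± 0.38, adjusted p = 0.0391). At 1 h it was already above the controls, which ran from 3.30 to 10.0. The other 4 were the promoters of Klrd1 and Clec2h, which encode C-type lectin-like receptors, Ubr2, a ubiquitin ligase gene, and Wdpcp, a gene of planar cell polarity and cilia.

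None of the 12 largest falls held an AP-1 match, but with 9.07% of all peaks holding one, 12 peaks are too few to show a lower share. In 8 of the 12 both 10 h libraries lay below all 6 controls, while in 2 both 1 h libraries lay above them. As for the rises, these counts against controls reuse the values that chose the peaks, with no share over all peaks. The exonic peak 593 bp from the start of 4833420G17Rik had 38.8 and 42.5 at 1 h, then 12.4 and 2.55 by 6 h and 3.91 and 5.66 by 10 h, against 3.37 to 10.5 in controls. It stood far above the controls at 1 h, on either side of their range at 6 h and within it at 10 h, a fall of 3.05 ± 0.60 (adjusted p = 0.00212). The Lpo promoter went from 20.6 and 31.7 at 1 h to 8.69 and 7.74 by 6 h and 2.91 and 3.77 by 10 h, against 7.84 to 25.1 in controls, so it ended below them (-2.94 ± 0.66, adjusted p = 0.0132).

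The 6 largest promoter falls, from -1.97 to -2.94, included genes of transcriptional regulators beside Lpo and the lipase gene Liph. Lef1, a transcription factor gene of the Wnt pathway, had 81.5 and 66.0 at its promoter at 1 h, then 41.4 and 42.0 by 6 h, and 22.7 and 14.8 by 10 h, with controls between 27 and 37.0. Its libraries moved from above to below the control range, a fall of 1.97 ± 0.36 on the log2 scale (adjusted p = 0.000638), the lowest p among the falls. Hoxd1, a homeobox gene, fell at its promoter from 16.4 and 35.3 to 4.92 and 5.66 (-2.29 ± 0.62, adjusted p = 0.0467). Runx1t1, which encodes a transcriptional corepressor, fell from 23.3 and 27.8 to 1.02 and 8.57 (-2.37 ± 0.59, adjusted p = 0.0303). Esrrg, an orphan nuclear receptor gene, completed the 6. Among the lowest p, picked after seeing them, was also the promoter of Isl1, a LIM homeodomain gene, at 127 and 130 at 1 h, then 69.9 and 87.0 by 6 h, 57.0 and 61.8 by 10 h, and 66.8 to 82.6 in controls (-1.11 ± 0.23, adjusted p = 0.00617). The other largest falls lay nearest to Sall3, Igf1, Arid4a, Lypd6, Rere, Cadm2, Ebf3 and H2al1n, with changes between -2.97 and -2.60.

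Set against the 6 pooled controls, the changed peaks fell into a few kinds. These descriptions share the KCl libraries with the comparison that chose the peaks, so they say where the peaks stood and are not tests. At 10 h 343 of the 592 rises were gained, that is called above controls (57.9%, against 5.91% of all peaks), and 0 were closing (1.96% of all peaks). At 1 h 163 of them were closing, that is called below controls (27.5%, against 3.05%), and 17 were already gained (5.29% of all peaks). In one group, 323 peaks were not called at 1 h and were gained at 10 h, and in another, 160 were closing at 1 h and not called at 10 h. A further 17 were gained at both times, 3 were closing at 1 h and gained at 10 h, and 89 were called at neither. The share closing at 1 h ran from 12.7% (adjusted p below 0.01) to 38.5% (mean count of at least 30) over the alternatives with all libraries, and the share gained at 10 h from 44.8% to 78.2%. With 1 library left out they ran from 18% (without 1 h library A) to 33.3% (without 1 h library B) and from 57.3% to 70.1%. Of the 339 falls, 151 were gained at 1 h (44.5%) and 101 were closing at 10 h (29.8%). They comprised 148 peaks called above controls at 1 h only, 98 called below controls at 10 h only, 3 called at both times and 90 called at neither. The share gained at 1 h ran from 28.9% (limma) to 55.6% (adjusted p below 0.01), and from 25% (without 1 h library B) to 52.6% (without 10 h library A). The share closing at 10 h ran from 0% (adjusted p below 0.01) to 50% (limma), and it also moved with 1 library left out. At adjusted p below 0.01 these are shares of only 9 falls. Without 1 h library B very few peaks were called, so the shares given for that setting say little about composition.

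Position and sequence, which the choice did not use, were as follows in these groups. The 323 late-gained peaks had a median distance of 77.9 kb to the nearest protein-coding start site and a GC content of 41.6%, 6.19% were in promoters and 49.5% held an AP-1 match. The 160 peaks that were closing at 1 h lay closer, at 11.7 kb, with 20.6% in promoters, and 6.25% of them held AP-1 but 10.0% the CTCF motif, compared with 3.15% of all peaks. CTCF is the insulator protein that anchors chromatin loops. Among the falls, the 148 that had been gained at 1 h were promoter peaks in 57.4%, with a median distance of 0.270 kb, and 4.73% held a CRE, the site of CREB, compared with 0.708% of all peaks. The 98 that ended below controls lay in promoters in 41.8%.

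The 6 h KCl libraries are not in the contrast that chose the peaks, but they entered the filter, the scaling and the spread estimate of its fit. With the 4 KCl libraries of 1 and 10 h alone, 666 peaks rose, 513 of them among the 592, and 477 fell, which include all 339. Against controls at 6 h, 219 of the 592 rises were gained (37.0%, against 5.44% of all peaks) and 12 were closing (2.06% of all peaks), with a median change of 0.60. The share gained ran from 27.8% to 44.7% over the alternatives with all libraries. Of the 339 falls, 8 were gained and 12 closing, with a median of -0.04. In the direct tests between times, KCl 6 h against 1 h called 97 peaks higher (0.172%) and 64 lower (0.114%), and without KCl 1 h library B it called 0, without 6 h library A 76 and without 6 h library B 40. The balance of directions turned with limma (61 higher and 127 lower), at a mean count of at least 30 (57 and 69) and without 6 h library A (32 and 44). KCl 10 h against 6 h called 0 peaks by edgeR and by DESeq2 and 5 by limma, and with edgeR 3339 of the 56383 peaks had an unadjusted p below 0.05. Without 6 h library A it called 23, and without 10 h library B it called 1. These comparisons share libraries with the 10 h against 1 h one. The medians of the rises were 1.05 from 1 to 6 h and 0.38 from 6 to 10 h, and those of the falls -0.58 and -0.45.

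**Figure D3:**
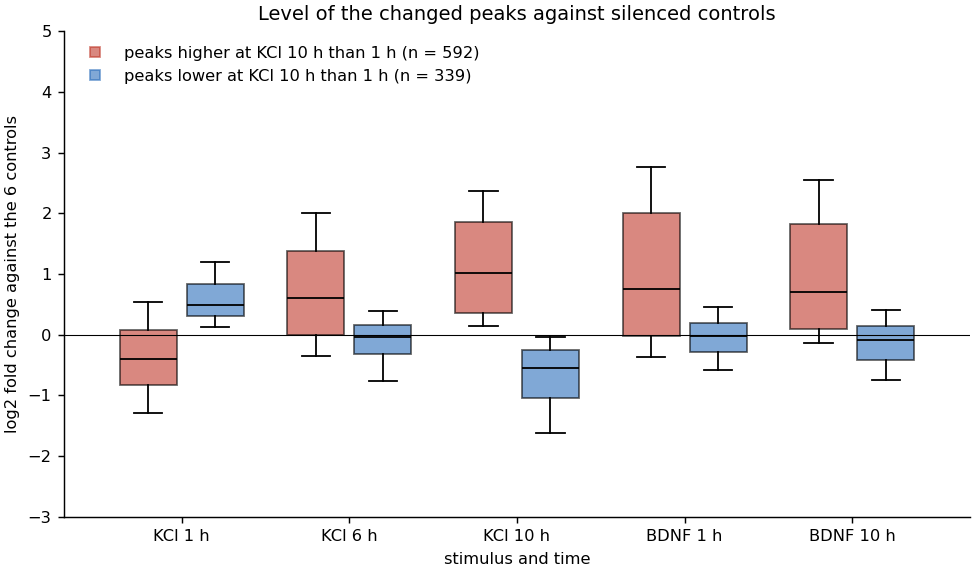
Log2 fold change against the 6 controls (vertical axis) of the 592 peaks that rose (red) and the 339 that fell (blue) between KCl 1 h and 10 h, at each KCl time and with BDNF at 1 h and 10 h. Boxes span the quartiles with the median as a line, and whiskers reach the 10th and 90th percentiles. The median of the rises goes from -0.39 at KCl 1 h to 1.02 at 10 h, and it is 0.75 at BDNF 1 h.

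Location separated rises from falls over the full sets too. Of the peaks that rose, 12.8% were in promoters (95% exact binomial interval 10.3 to 15.8%), 34.1% in introns and 49.0% between genes, with a median distance of 37.2 kb to a protein-coding start site and a median GC content of 44.5%. Of those that fell, 49.0% were in promoters (43.5 to 54.4%), 20.6% in introns and 26% between genes, with medians of 1.10 kb and 52.7%. All peaks tested had 27.1% in promoters, a median distance of 20.2 kb and a GC content of 49.0%. The falls were also wider, with a median of 550 bp against 377 bp for rises and 375 bp for all peaks. Over the alternatives that kept all libraries, the promoter share ran from 7.34% (DESeq2 size factors) to 21.5% (mean count of at least 30) of rises and from 36.5% (GC correction) to 66.8% (DESeq2 size factors) of falls.

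AP-1 (TGAGTCA) was found in 196 of 592 rises, 33.1% (29.3 to 37.1%), in 17 of 339 falls, 5.01% (2.95 to 7.91%), and in 9.07% of all peaks. The share among rises was between 20.8% (only peaks with a mean count of at least 30) and 43.6% (adjusted p below 0.01) over the alternatives that kept all libraries, and in the whole peak it was 41.0%, against 13.6% of all peaks. The E-box CAGATG, bound by NeuroD-type factors of neurons, was in 23.6% of rises, 11.5% of falls and 18.7% of all peaks. The GC-rich KLF/SP box GGGGCGGG was in 0.845% of rises, 10.3% of falls and 6.14% of all peaks. Within promoters, 1.03% of peaks with it and 1.10% of peaks without it fell. Outside promoters 0.926% with it (5 of 540) and 0.414% without it fell. The CRE TGACGTCA was in 0.169%, 2.06% and 0.708%, the EGR box GCGNGGGCG in 2.03%, 4.13% and 2.77%, and the ETS site CCGGAAGT in 0.338%, 2.06% and 1.27%. Within promoters, 1.07% of peaks with a CRE and 1.09% of peaks without it fell. Outside promoters 3.39% with a CRE (4 of 118) and 0.412% without it fell. EGR and KLF/SP matches can overlap.

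MEF2 was in 4.05% of rises, 1.77% of falls and 3.12% of all peaks, the octamer ATGCAAAT in 4.05%, 2.95% and 3.16%, and the homeobox site TAATTA in 8.28%, 8.85% and 9.34%. CTCF was in 3.89% of rises, 3.15% of all peaks and 0 of 339 falls. For the falls, a limit of 3 counts allows a share of up to 0.885%, and the 95% exact interval reaches 1.08%. SRF was in 1.18% of rises, 0 falls and 0.942% of all peaks. The NBRE AAAGGTCA of Nr4a receptors and the C/EBP site TTGCGCAA were found in 0 and 1 of the rises and in 1 and 0 of the falls. Over all peaks their shares were 0.362% and 0.0603%. All were searched on both strands of the central 200 bases. A match describes letters and does not show binding.

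**Figure D4:**
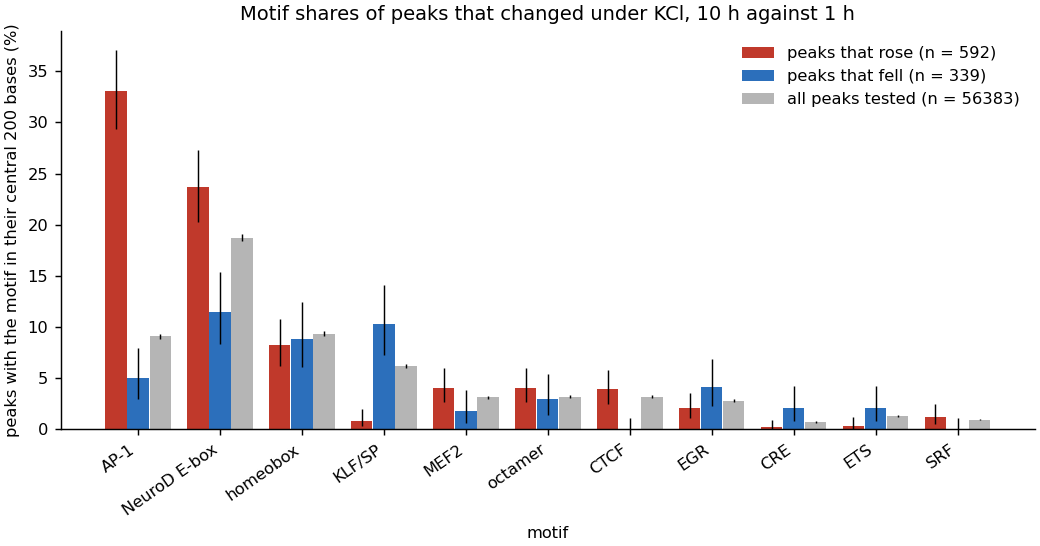
Share of peaks (%) with each motif in the central 200 bases, for the 592 peaks that rose (red), the 339 that fell (blue) and all 56383 tested (grey). Error bars are 95% exact binomial intervals. AP-1 stands at 33.1% of rises against 9.07% of all peaks, and KLF/SP at 10.3% of falls against 0.845% of rises.

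Taken by sequence alone and not by their change, the 5116 peaks with an AP-1 site had a median change of 0.24 between 1 and 10 h, against -0.02 for the 51267 without, and 3.83% of them rose and 0.332% fell. Outside promoters the medians were 0.27 with the site and 0.01 without. Between controls of 1 h and 10 h, peaks with the site also rose, by a median of 0.17, and by 0.18 outside promoters. Without the site both control medians were 0.01. Within promoters, the KCl medians were both below 0, at -0.03 with the site and -0.06 without, and the control medians were 0.03 and 0.01. As the median log2 level of AP-1 peaks over the mean of controls, with 1 added to each count, the KCl libraries stood at 0.63 and 0.34 at 1 h (A and B), then 0.78 and 0.57 by 6 h, and 0.82 and 0.67 by 10 h. The 2 times do not overlap, but 1 h library A is nearly as high as 10 h library B, and the gap within 1 h is as large as the change between the times. Without 1 h library B the median change was 0.12, and without 1 h library A it was 0.41. Peaks without the site stayed between -0.01 and 0.03 in all 6 KCl libraries, and controls of 10 h had AP-1 medians of 0.10 and 0.10 against -0.03 and -0.05 for controls of 1 h.

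Peaks with the CTCF motif lay below controls at every KCl time. Their medians on the same scale were -0.30 and -0.30 at KCl 1 h, then -0.13 and -0.16 by 6 h, and -0.14 and -0.18 by 10 h, so both 1 h libraries were below all later ones, and controls ran from -0.01 to 0.09, with the 2 controls of 10 h (0.06 and 0.09) above the other 4. The BDNF libraries were also below all controls. They held -0.10 and -0.13 after 1 h, -0.06 and -0.03 after 6 h, and -0.06 and -0.11 after 10 h. The median change of the 1778 CTCF peaks between 1 and 10 h was 0.14 with KCl, 0.03 with BDNF and 0.10 in controls. With KCl 23 of them rose (1.29%, against 1.05% of all peaks) and 0 fell. The KCl median stayed between 0.10 and 0.16 without any 1 of the 4 KCl libraries.

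BDNF, which activates the TrkB receptor and its kinase cascades, was measured at the same times in libraries outside the KCl contrast. Those libraries still entered the filter, the scaling and the spread estimate of its fit. A peak high with BDNF could pass the filter through them, so the shares below are not fully independent. From 1 to 10 h of BDNF 151 peaks rose (0.268%) and 367 fell (0.651%), a count that dropped to between 41 and 252 called peaks when any 1 of the 4 BDNF libraries was left out. Of the 592 KCl rises, 6 rose and 6 fell with BDNF and the median change was 0.00, and of the 339 KCl falls 0 rose and 4 fell, with a median of -0.08. Many of the KCl rises were open early with BDNF: 298 of 592 were gained at BDNF 1 h (50.3%, against 12.5% of all peaks) and 16 were closing (4.78% of all peaks). The share gained at BDNF 1 h ran from 35.7% (mean count of at least 30) to 63.6% (adjusted p below 0.01) over the alternatives with all libraries. At BDNF 10 h 263 were gained (44.4%, against 7.46%) and 1 was closing (1.9% of all peaks). Of the 339 falls, 26 were gained at BDNF 1 h (7.67%) and 15 were closing (4.42%). AP-1 peaks in BDNF had medians of 1.40 and 1.44 after 1 h, then 1.03 and 0.99 after 10 h, higher at 1 h, the reverse of KCl.

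The difference between the stimuli was tested directly. The KCl change exceeded the BDNF change at 436 peaks (0.773%) and was below it at 135 (0.239%). Among the KCl rises 170 of 592 passed upward, and among the falls 40 of 339 passed downward. These counts use the KCl libraries that chose the peaks. In all the test called 571 peaks, but 22 without KCl 1 h library B and 80 without KCl 10 h library A. It called 169 and 118 without BDNF 1 h library A or B, and 307 and 342 without BDNF 10 h library A or B. The Gdf6 peak, which rose with KCl, held 112 and 118 after 1 h of BDNF, then 137 and 122 after 10 h, and its difference was 2.12 (adjusted p = 0.00238). The Aco1 peak held 9.50 and 12.8 after 1 h of BDNF and 6.04 and 4.61 after 10 h, near its control range of 4.55 to 11.7, and its difference was 4.01 (adjusted p = 0.0142).

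Few peaks were called over time in silenced culture. Between controls of 1 h and 10 h, 14 peaks rose (0.0248%) and 8 fell (0.0142%), and without any 1 of these 4 libraries at most 7 were called. The 592 KCl rises had a median change of 0.20 in controls and 395 of them were positive (66.7%, against 51.7% of all peaks), while the falls had a median of 0.00. The KCl change exceeded the control change at 16 peaks (0.0284%), 9 of them KCl rises, and was below it at 12 (0.0213%), 9 of them KCl falls. The split was 28 above and 49 below with TMM, and 28 above and 61 below with DESeq2 size factors. The other called peaks were not shown to differ from controls in their change by this test, which compares 4 groups of 2. It called 8 peaks in all without KCl 1 h library B, 6 without control 1 h library A and 3 without control 10 h library B.

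**Figure D5:**
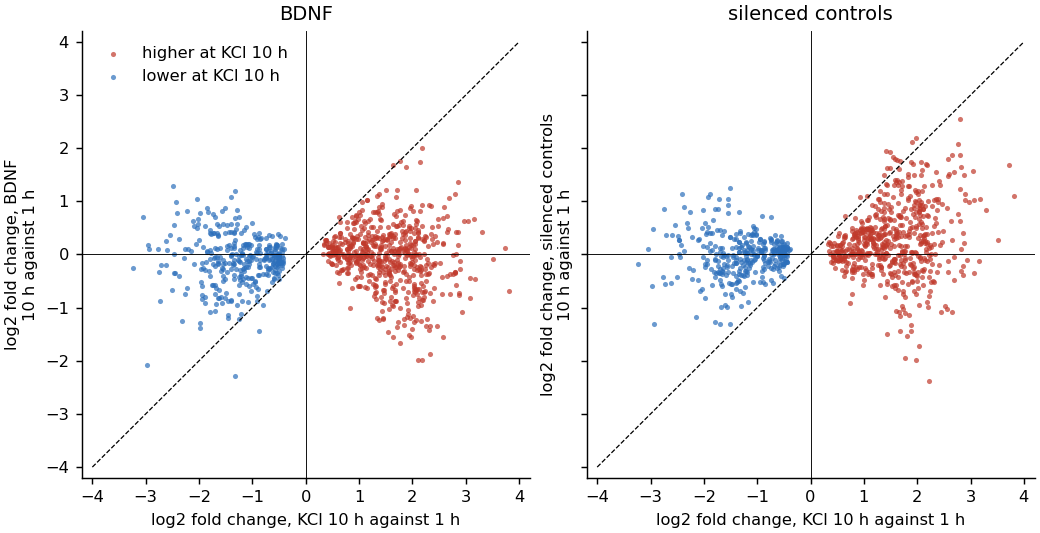
Log2 fold change from 1 to 10 h with KCl (horizontal axes) against that with BDNF (left) and in silenced controls (right), 1 point for each of the 592 peaks that rose (red) and the 339 that fell (blue). The dashed line marks equal change. The points lie around 0 with BDNF, with medians of 0.00 and -0.08, and the rises lie slightly above 0 in controls, with a median of 0.20.

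Peaks near genes of depolarisation signalling were counted by lists of genes. Within 50 kb of a protein-coding start site, 329 of 36712 peaks rose (0.896%) and 248 fell (0.676%), with a median change of -0.01. Of 118 peaks nearest to 23 calcium signalling and channel genes, 3 rose and 0 fell (median 0.13). The promoter of Camk2b, a subunit gene of the calcium/calmodulin-dependent kinase CaMKII, rose from 59.5 and 73.3 to 117 and 117 (0.80 ± 0.22, adjusted p = 0.0569), with controls of 68.0 to 104, while Camk2b mRNA fell by 0.40 ± 0.10 on the log2 scale (limma, adjusted p = 0.00260). An exonic peak 561 bp from the start of Cacna1a, the P/Q-type calcium channel gene, rose from 291 and 246 to 357 and 391 (0.49 ± 0.13, adjusted p = 0.0402). An intronic peak of Ppp3ca, which encodes the catalytic subunit of calcineurin, rose from 12.1 and 4.57 to 24.1 and 30.3 (1.77 ± 0.54, adjusted p = 0.0922), with controls of 1.00 to 7.05. Ppp3ca mRNA fell by 0.69 ± 0.08 (limma, adjusted p = 2.49e-07), and that of Cacna1a changed by -0.15 ± 0.14 (limma, adjusted p = 0.395).

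Of 98 peaks nearest to 26 potassium and sodium channel genes, 3 rose and 0 fell (median -0.12). They were near Kcns2, a gene for a modulatory potassium channel subunit (23.7 and 15.1 to 51.8 and 46.8; 1.37 ± 0.39, adjusted p = 0.0652), Kcnd3, for an A-type potassium channel (12.0 and 14.0 to 52.3 and 27; 1.58 ± 0.45, adjusted p = 0.0662), and Scn3a, for a sodium channel (5.16 and 4.68 to 22.4 and 18.9; 2.05 ± 0.62, adjusted p = 0.0856). The Scn3a peak holds an AP-1 match. The mRNA of Kcns2 rose from 29.6 and 29.9 to 286 and 260 normalised counts (limma, 3.15 ± 0.18, adjusted p = 9.27e-12), that of Scn3a by 0.33 ± 0.10 (adjusted p = 0.00736), and that of Kcnd3 changed by 0.10 ± 0.09 (adjusted p = 0.385). Of 79 peaks near 23 glutamate and GABA receptor genes 0 were called.

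Of 80 peaks near 27 late secreted and synaptic effector genes, 1 rose and 3 fell (median 0.04). An AP-1-bearing peak 5332 bp from Serpinb2, a serine protease inhibitor gene, rose from 8.58 and 4.45 to 37.1 and 17.4 (2.10 ± 0.52, adjusted p = 0.0274). Serpinb2 mRNA was low and rose from 7.41 and 7.48 to 14.7 and 12.0 normalised counts (limma, 0.76 ± 0.28, adjusted p = 0.0292). An intronic peak of Igf1, the insulin-like growth factor 1 gene, fell from 18 and 40.8 to 3.86 and 4.72 (-2.76 ± 0.66, adjusted p = 0.0223), while Igf1 mRNA rose from 426 and 485 to 1171 and 1038 normalised counts (limma, 1.28 ± 0.18, adjusted p = 2.15e-05). The promoter of Plat, tissue plasminogen activator, fell from 170 and 205 to 105 and 120 (-0.74 ± 0.18, adjusted p = 0.0274), and a peak 3464 bp from the start of Nrn1, neuritin, from 34.4 and 21.9 to 4.1 and 11.6 (-1.79 ± 0.53, adjusted p = 0.0798). The mRNAs of Plat and Nrn1 changed by 0.03 each and did not pass.

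In the lists of rapid activity-regulated and of AP-1 and related genes, most genes fell in mRNA, and 1 peak near them was called. Not all of them stood above controls at KCl 1 h: Mef2a mRNA held 1898 and 1888 normalised counts, against 1627 to 1960. Of 15 rapid activity-regulated transcription factor genes, 15 fell in mRNA between 1 and 10 h, and 9 of 12 measured AP-1 and related bZIP genes fell, compared with 24.9% of all genes tested that fell and 29.5% that rose. Fos mRNA went from 5742 and 5274 to 948 and 995 normalised counts (limma, -2.50 ± 0.18, adjusted p = 9.07e-10), and Junb from 3586 and 3033 to 259 and 232 (-3.74 ± 0.16, adjusted p = 3.18e-13). Fos at 10 h was still far above the controls, which ran from 25.1 to 43.3. Of 54 peaks near the AP-1 list 0 were called, and of 64 near the rapid list 1 was. With so few peaks these calls are near the shares of all peaks within 50 kb, of which 0.896% rose and 0.676% fell. The main Fos promoter peak, 123 bp from the start, stood at 122 and 114 after 1 h, then 108 and 140 after 10 h (0.08 ± 0.21, adjusted p = 0.918). The called one was an intergenic peak 14741 bp from the start of Klf4, a zinc finger transcription factor gene, which fell from 32.8 and 30.7 to 4.92 and 9.44 (-2.12 ± 0.57, adjusted p = 0.0444). Klf4 mRNA fell from 369 and 519 to 25.7 and 40.3 (limma, -3.72 ± 0.24, adjusted p = 7.09e-11). Of 31 peaks near 14 MAP kinase feedback genes 0 were called.

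The shares of genes near changed peaks that moved in mRNA were close to those near all peaks. Of 229 measured genes within 50 kb of a rise, 70 rose (30.6%) and 63 fell (27.5%), and of 220 near a fall, 72 rose (32.7%) and 60 fell (27.3%). Among the 11968 measured genes near any tested peak, 33.2% rose and 25.9% fell. The median mRNA changes were -0.01 near rises, 0.01 near falls and 0.04 near all peaks. For promoter peaks that fell, 51 of 152 genes rose in mRNA and 37 fell, with a median of 0.07, against 0.05 for genes of all promoter peaks.

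Markers of each cell type were counted against all genes tested, of which 29.5% rose and 24.9% fell in mRNA. The summed level of 10 astrocyte and radial glia markers was 27102 to 29956 normalised counts at KCl 1 h and 21665 to 23397 at 10 h (5 lower and 1 higher by the test), and that of 8 oligodendrocyte lineage markers was 4633 to 5152 and 6811 to 7577 (4 higher and 1 lower). The excitatory neuron list had sums of 45995 to 50231 and 44829 to 47578 (2 higher and 3 lower), inhibitory neuron markers 14788 to 16579 and 15028 to 16415 (2 higher and 3 lower), and microglia, endothelial and fibroblast markers 3315 to 3582 and 2099 to 2326 (0 higher and 4 lower). Most of the excitatory sum came from the general neuronal markers Map2 (27548 and 25820 at 1 h) and Tubb3 (11523 and 9795), so it does not measure excitatory neurons alone. Most of the last sum came from Col1a1 (1563 and 1965 at 1 h) and Col1a2 (1443 and 1277). In bulk samples fewer cells of a type and less RNA per cell cannot be told apart. Of 49 peaks near the astrocyte and radial glia list 1 was called, and 0 were of 49, 25, 27 and 8 near the excitatory, inhibitory, oligodendrocyte and last lists. It was an exonic peak of Vim, the vimentin gene of radial glia, which fell from 42.8 and 46.3 to 15.5 and 15.5 (-1.52 ± 0.44, adjusted p = 0.0673). Vim mRNA changed by -0.07 ± 0.27 and did not pass (limma, adjusted p = 0.858). The part of cell composition, and of the depth that differed between the times, in the called peaks was not tested.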

How the data were processed

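Members and gene lists were chosen with earlier results of these data known. For ATAC-seq, Bowtie2 placed reads on mm10, and the authors deposited whole-number counts for 58177 peaks in 18 libraries, with a lowest value of 1. The submitters' processing notes also name Trimmomatic, MACS2 and DiffBind. For RNA-seq, aligned with TopHat2, the authors deposited a signal, read counts divided by DESeq2 size factors, from which whole reads were recovered for 100% of values (within 0.01). The authors' own comparison columns (log2 fold changes and p-values) were not used.

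Peaks with a mean count of at least 10 (56383) were fitted with edgeR 4.0.16 (quasi-likelihood, R 4.3.3) using LOESS offsets and 7 levels, with controls of all times as 1 level, or 9 levels where control times were compared. Calls had a Benjamini-Hochberg adjusted p below 0.1. RNA was tested with limma 3.58.1 on log2(value + 1), for 16209 genes with a mean of at least 10. This scale understates the change of low genes. DESeq2 1.42.0 was an alternative. Both fits were also run on simulated data, and the outcome is not given here. Start sites came from GENCODE M21 on GRCm38, and a promoter was the 1000 bp before and 100 bp after the start of any transcript.

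The peaks named were the 12 largest rises and falls and the 6 largest in promoters of protein-coding genes, called and with no overlap between the times, and those of the lists within 50 kb of a start site. Column names gave each library's group but not its replicate number, so A and B are names only. One of the largest falls is not reported here.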

Additional observations from a re-analysis of the deposited data

Results flagged for a closer look

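The change from 1 to 10 h differed between KCl and BDNF at 571 peaks, and between KCl and silenced controls at 28, by edgeR's test of the difference itself. None of the 46 named peaks passed that test against controls. Near Aco1 its adjusted p was 0.189, and at the Lef1 promoter 0.192. These peaks are thus not shown to differ from silenced culture in their change. Of the peaks named, the KCl change was above the BDNF change, as log2 differences, near Has1 (4.49), Serpinb2 (4.09), Aco1 (4.01), Myo3a (3.90), Car8 (3.63), Msl3l2 (3.61), Ptchd4 (3.60), Phf3 (3.51), Ppp3ca (3.44), Ubr2 (2.94), Kcns2 (2.61), Vmn2r120 (2.39) and Rdh10 (2.13). It was below the BDNF change near 4833420G17Rik (-3.76), Klf4 (-2.74), Runx1t1 (-2.65) and Lef1 (-1.71). These differences reuse the KCl libraries that chose the peaks. The Has1 one rests on a count of 1, the lowest value any library holds, in each KCl 1 h library, so its size is poorly known. The Serpinb2 peak had the lowest adjusted p of these (0.000604), with 75.0 and 45.2 after 1 h of BDNF, then 12.8 and 16.7 after 10 h, the opposite course to KCl.

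Single control libraries stood apart from the other 5 at 4 of the 46 named peaks. The highest control had 23.0 near Arid4a, 25.1 at the Clec2h promoter and 7.05 at the Ppp3ca peak, and the lowest had 6.23 at the Nrn1 peak. Chance sets a sample apart in this way in about 1 of 20 groups.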

How the results depend on the processing

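KCl 10 h against 1 h called 931 peaks, and 64 at adjusted p below 0.01, 1430 with TMM, 1496 with DESeq2 size factors, 469 with DESeq2, 123 with limma, and 16 to 520 with 1 library left out. The share higher was 63.6%, and 53.7% with size factors. KCl 6 h against 1 h (161) gave 3, 304, 335 and 48 under the first 4 of these, 270 with 9 levels and 0 to 137 with a library left out. KCl 10 h against 6 h (0) gave 5 with limma, 4 at a mean count of at least 30, 4 with 9 levels and 0 to 23. The control comparison (22) gave 0 at adjusted p below 0.01 and 0 with DESeq2, and 0 to 7. KCl less control change (28) gave 1 at 0.01, 77 with TMM, 89 with size factors, 5 with DESeq2, 0 with limma, 48 at a mean of at least 30, and 3 to 26. BDNF 10 h against 1 h (518) gave 51 at 0.01, 325 with DESeq2, 291 with limma, 342 at a mean of at least 30, and 41 to 252. KCl less BDNF change (571) gave 27, 281, 22 and 316 under the same 4, and 22 to 585. Genes (8827) ranged from 5890 to 10179.

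Of 606 alternative values for 46 named peaks, 386 kept their call and 220 lost it. Without KCl 1 h library B, 1 of the 46 kept its call. Promoters counted as 2000 bp on both sides held 17.4% of rises and 57.2% of falls. No paired analysis was possible because the columns carry no replicate numbers. Depth at 10 h limits peaks with few reads.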
